A study of Mus musculus with 6 samples.

Results

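The 10 genes described here encode the AP-1 transcription factors and close relatives: Fos, Fosb, Fosl1 and Fosl2 (the Fos family), Jun, Junb and Jund (the Jun family), Atf3, Batf and Maff. They were chosen by name, with earlier results of these data known, and each was found as 1 of the 28752 genes in the deposited table. RNA sequencing compared 3 samples with the vector, labelled WT, with 3 samples overexpressing circEZH2_005, a circular RNA from the Ezh2 gene, delivered by an adenovirus. Both groups are labelled as intestinal crypt stem cells, and both were exposed to hypoxia/reoxygenation (H/R): infection for 72 h, then 4 h at 2% O2. The methods of the study take Lgr5+ stem cells, which lie at the crypt base, from Lgr5-GFP mice and grow them as organoids. They do not say that the sequenced samples were made in this way. No sample without H/R was analysed here, the organoid methods of the study give a shorter interval before H/R than the labels do, and the methods give an age for the C57BL/6 males of the study but none separately for the Lgr5-GFP mice. The study states in general that its experiments used independent biological replicates, while the labels do not say whether these samples came from separate animals or cultures, so p-values measure the spread between these samples.

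AP-1 proteins bind DNA as dimers that are joined by a leucine zipper. Fos proteins cannot pair with themselves and need a Jun partner, whereas Jun proteins pair with Fos, with other Jun proteins or with relatives of the ATF, BATF and MAF families. Many of these genes are immediate early genes, switched on within minutes by growth factors, stress or tissue injury, and in the intestinal epithelium Jun is known to act in crypt proliferation and in repair.

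Of the 10 genes, 9 had enough reads to be tested and all 9 had higher normalized counts in every circEZH2_005 sample than in any vector sample. Such a separation was seen in 16.4% of the 18348 genes tested. At an adjusted p under 0.05 (quasi-likelihood F test of edgeR, adjusted after Benjamini and Hochberg over all genes tested), 6 members rose: Fosb, Fosl2, Jun, Junb, Jund and Atf3. Of all genes tested, 2.69% were called higher by this rule. The study itself lists Jun among its 10 most raised mRNAs, while by log2 fold change in edgeR Jun ranked 949 among all genes tested here. The members were chosen with earlier results of these data known. Shares over all genes are therefore given as a description and not as a test. The largest called rises were those of Fosb, 6.69-fold, Atf3, 4.96-fold, and Jun, 2.86-fold. Fos, Batf and Maff had log2 fold changes of 1.07, 2.44 and 0.97 and missed the threshold (adjusted p = 0.0566, 0.0574 and 0.0622, edgeR). No member fell: 0 of 9 were lower by edgeR at an adjusted p under 0.05 or at an unadjusted p under 0.05, and 0 by DESeq2, where 0.986% of all genes tested were called lower by edgeR. With a fold change over 2 and an unadjusted p under 0.05, 5 of 9 were higher (Fos, Fosb, Jun, Atf3 and Batf), beside 6.22% of all genes. The median log2 fold change was 1.07 over the 9 members and 2.15e-05 over all genes tested. Exact permutation of single genes cannot go below p = 0.1 with 3 samples against 3, and each of the 9 reached that value (two-sided).

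**Figure D1:**
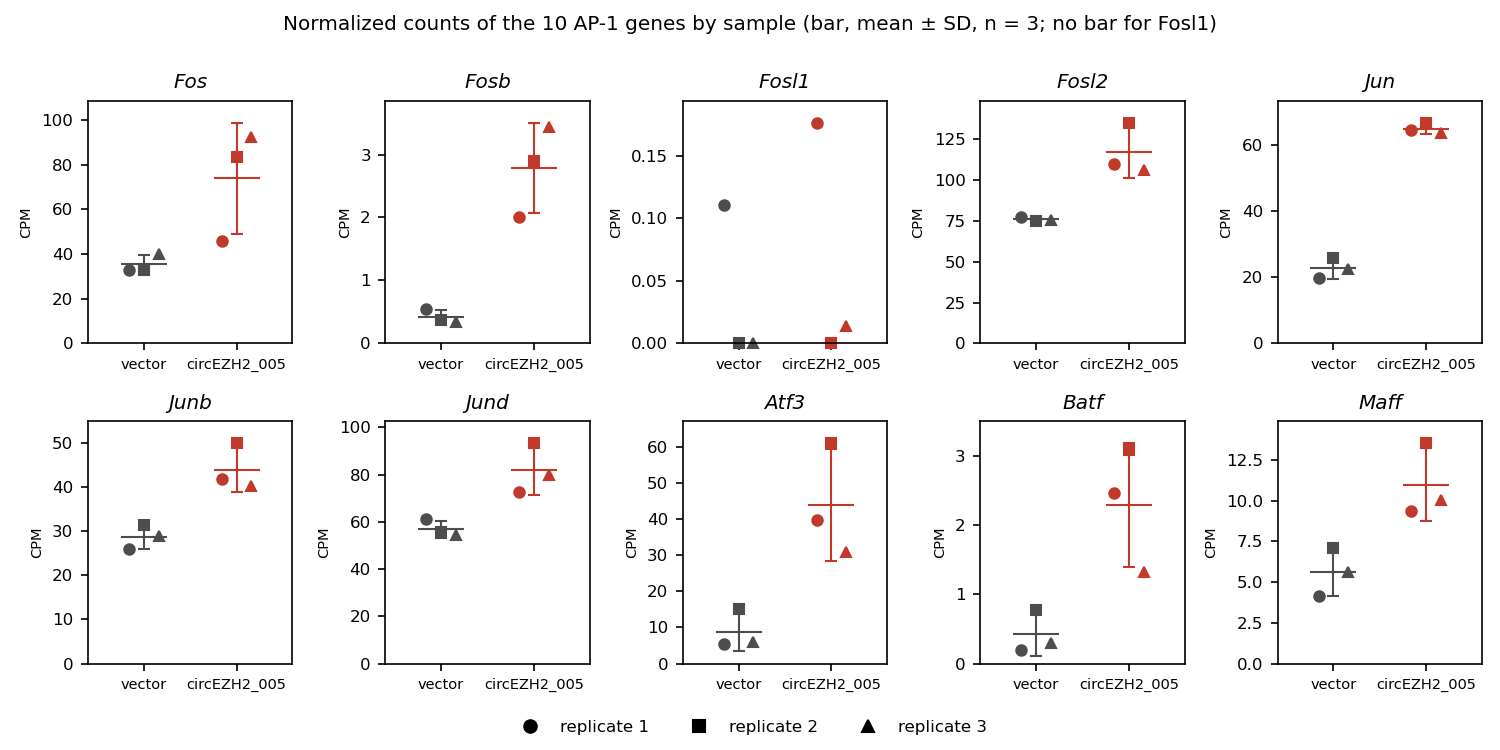
Normalized counts (CPM, counts scaled to library size with TMM factors, linear axes from 0) of the 10 genes in each vector and circEZH2_005 sample; the horizontal line is the mean and the bar the SD over 3 samples, with no bar for Fosl1. In 9 of 10 panels the circEZH2_005 samples all sit above the vector samples, and Fosl1 is close to 0 in every sample.

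The samples held between 71506487 and 79919893 counts, at which 3 counts (taken as the smallest level told from none) are 0.0377 to 0.0419 CPM; this floor covers counting error only. Mitochondrial transcripts took 7.70% to 8.20% of counts. Vector sample 2 stood closest to the circEZH2_005 samples, with correlations of log2 CPM across genes of 0.965 to 0.971 to them, against 0.951 to 0.964 for vector samples 1 and 3 (genes are not independent replicates). The number of members past an adjusted p of 0.05 depended on single samples: it was 7 without vector sample 2, 6 without circEZH2_005 sample 1, 2 without circEZH2_005 sample 3, and 1, Jun, without vector sample 1, vector sample 3 or circEZH2_005 sample 2. Over all genes the higher calls in these fits ranged from 26 to 1098. In a bulk sample, fewer cells of a type and less RNA per cell cannot be told apart.

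Levels of different genes were compared by FPKM, fragments scaled to transcript length and to library size. In vector samples Jund was highest, at 31.6 ± 1.62 FPKM (SD, n = 3), followed by Junb at 14.7 ± 1.60, Fos at 13.9 ± 1.62, Fosl2 at 7.26 ± 0.02, Jun at 6.59 ± 1.00, Atf3 at 3.82 ± 2.34 and Maff at 2.00 ± 0.54. Batf, Fosb and Fosl1 were under 1 FPKM in every vector sample, with means of 0.268, 0.0595 and 0.0140 FPKM. Among neighbours in this order, Junb and Fos overlapped in range, as did Fosl2 and Jun, Jun and Atf3, and Atf3 and Maff. In circEZH2_005 samples Jund was again highest, at 42.6 ± 3.51 FPKM, and Fos came next at 27.0 ± 7.92, with a range that overlapped that of Junb at 21.1 ± 2.10. Jun at 17.7 ± 1.01 and Atf3 at 17.7 ± 5.76 FPKM had the same mean level within their spread, and Fosl2 followed at 10.5 ± 1.15, Maff at 3.66 ± 0.59, Batf at 1.41 ± 0.55, Fosb at 0.383 ± 0.083 and Fosl1 at 0.0249 FPKM. Jun and Atf3 both lay above Fosl2 with circEZH2_005 in 3 of 3 samples. With the vector Fosl2 lay above Jun in 2 of 3 samples. Fosb, the gene with the largest fold change, was thus among the lowest in level in both groups.

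Jun (chromosome 4, 95049034 to 95052222, minus strand, GRCm38, a gene of a single exon) encodes c-Jun, the main activating Jun protein and a target of the JNK kinases. In vector samples 1 to 3 it had normalized counts of 19.6, 25.9 and 22.6 CPM, against 64.5, 66.6 and 63.5 CPM in circEZH2_005 samples 1 to 3. The circEZH2_005 samples lay close together, and the lowest of them was 2.45 times the highest vector sample. In edgeR the log2 fold change came to 1.52 (SE 0.11, 95% confidence interval 1.26 to 1.77, adjusted p = 0.00249). Among all genes tested Jun ranked 5 by p-value and 949 by log2 fold change. It was the 1 member that passed in each of the 6 fits that left a sample out and in 14 of 14 alternatives, with log2 fold changes from 1.31 to 1.62. The antisense gene Junos overlaps Jun by 232 bases of exon, with counts of 16 to 33 per sample against 1422 to 5125 for Jun. Whether strand was used in counting is not given in the sources used here, and without it reads of overlapping genes cannot be told apart.

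Junb (chromosome 8, 84976910 to 84978718, minus strand) encodes JunB, which can restrain c-Jun. Junb had normalized counts of 26.0, 31.4 and 28.8 CPM with the vector and 41.8, 49.9 and 40.3 CPM with circEZH2_005. The groups did not overlap, with a log2 fold change in edgeR of 0.61 (SE 0.11, adjusted p = 0.0375). It missed the threshold without vector sample 1 or 3 (adjusted p = 0.154 and 0.158) and without circEZH2_005 sample 2 or 3 (0.117 and 0.0671). Exons of Junb and of Prdx2 on the other strand share 173 bases, and Prdx2 had 10993 to 13267 counts per sample. Jund (chromosome 8, 70698949 to 70700616, plus strand) encodes JunD, the Jun protein present in most resting cells. Jund stood at normalized counts of 61.0, 55.5 and 54.3 CPM with the vector and 72.5, 93.3 and 79.9 CPM with circEZH2_005. The lowest circEZH2_005 sample was 1.19 times the highest vector sample, a narrow gap. Its log2 fold change of 0.52 in edgeR (SE 0.11, adjusted p = 0.0468) was the smallest of the 6 calls. Jund kept its call only without circEZH2_005 sample 1 among the fits that left 1 sample out; the adjusted p was 0.141, 0.0634 and 0.181 without vector samples 1 to 3, and 0.123 and 0.0987 without circEZH2_005 samples 2 and 3.

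Fos (chromosome 12, 85473890 to 85477273, plus strand) encodes c-Fos, the best known immediate early protein. Its normalized counts were 33.1, 32.9 and 40.0 CPM with the vector and 45.8, 83.4 and 92.6 CPM with circEZH2_005. The first circEZH2_005 sample lay near the vector samples, only 1.15 times the highest of them, and the other two well above. By edgeR this gave a log2 fold change of 1.07 (SE 0.24, 95% confidence interval 0.50 to 1.63, adjusted p = 0.0566), and without circEZH2_005 sample 1 it was 1.32 with an adjusted p of 0.00542. Fosb (chromosome 7, 19302696 to 19310051, minus strand) encodes FosB, whose splice form ΔFosB lacks part of the activation domain; the gene counts do not separate the forms. Fosb had few reads: counts of 39, 28 and 26 with the vector and of 160, 216 and 246 with circEZH2_005. That is 0.539, 0.375 and 0.332 CPM against 2.01, 2.90 and 3.43 CPM, and the lowest circEZH2_005 sample was 3.74 times the highest vector sample, the widest gap of any member. The difference on the log2 scale was 2.74 in edgeR (SE 0.33, 95% confidence interval 1.98 to 3.51, adjusted p = 0.0138). Among all genes tested Fosb ranked 117 by log2 fold change and 55 by p-value. The call was lost without vector sample 1 or 3 (adjusted p = 0.0505 and 0.0848) or circEZH2_005 sample 2 (0.0630), with log2 fold changes of 2.56 to 2.97 in the fits that left 1 sample out.

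Fosl2 (chromosome 5, 32135801 to 32157842, plus strand) encodes Fra-2, a Fos protein without a strong activation domain. Its normalized counts were 77.3, 75.2 and 75.6 CPM with the vector and 109.6, 135.0 and 106.4 CPM with circEZH2_005. The vector samples differed by only 1.03 times from lowest to highest, the tightest group of any member. Fosl2 rose by 0.62 on the log2 scale in edgeR (SE 0.10, adjusted p = 0.0301). It missed the threshold without vector sample 1 or 3 (adjusted p = 0.128 and 0.133) and without circEZH2_005 sample 2 or 3 (0.0625 and 0.0534). Fosl1 (chromosome 19, 5447547 to 5455946, plus strand), which encodes Fra-1, had counts of 8, 0 and 0 with the vector and of 14, 0 and 1 with circEZH2_005, and was too low to be tested. In each group 1 sample stood above 3 counts, so no difference was detectable at this depth, and 1163 exonic bases are shared with Ccdc85b on the other strand (104 to 188 counts per sample).

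**Figure D2:**
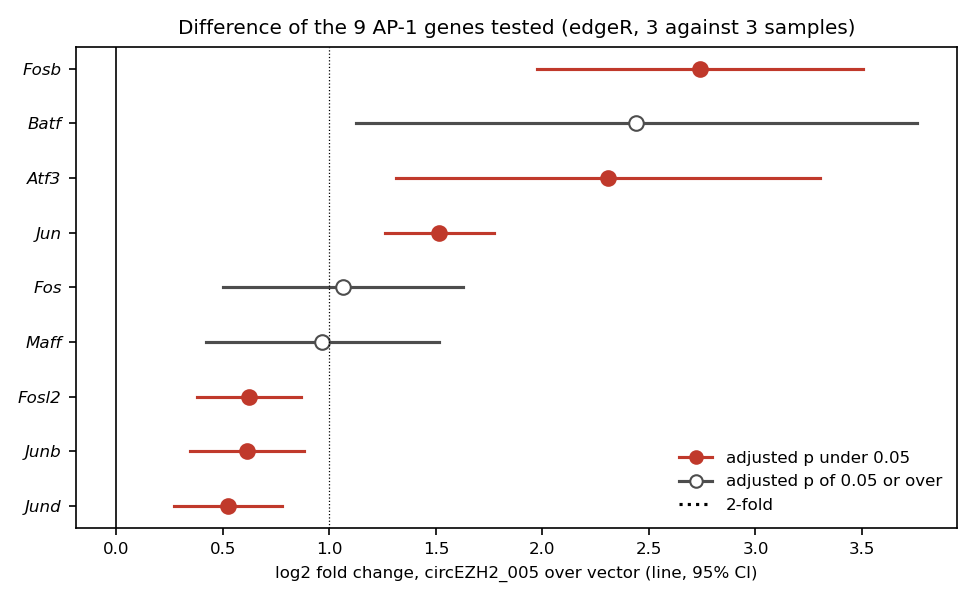
Log2 fold change of circEZH2_005 over vector for the 9 genes tested, with 95% confidence intervals from edgeR (linear axis; filled points have an adjusted p under 0.05 over all genes). Fosb, Batf and Atf3 have the largest estimates, Jun has an interval of 1.26 to 1.77, and Fosl2, Junb and Jund lie below the 2-fold line.

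Atf3 (chromosome 1, 191170296 to 191218039, minus strand) encodes a stress-induced factor that represses transcription as a homodimer and can pair with Jun proteins. Its normalized counts were 5.50, 15.0 and 6.07 CPM with the vector and 39.8, 61.0 and 30.8 CPM with circEZH2_005. Vector sample 2 held 2.73 times as much as the lowest vector sample, yet the lowest circEZH2_005 sample was 2.06 times vector sample 2. Atf3 rose by 2.31 on the log2 scale in edgeR (SE 0.43, 95% confidence interval 1.31 to 3.30, adjusted p = 0.0372). It was 2.92 without vector sample 2 (adjusted p = 0.00402), and the call was lost without vector sample 1 or 3 (adjusted p = 0.133 and 0.152) and without circEZH2_005 sample 1, 2 or 3 (0.0519, 0.126 and 0.0612).

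Batf (chromosome 12, 85686669 to 85709087, plus strand) encodes a small leucine zipper protein that pairs with Jun proteins and is best known in lymphocytes. It had counts of 14, 58 and 23 with the vector and of 196, 230 and 95 with circEZH2_005, or 0.193, 0.776 and 0.294 CPM against 2.47, 3.09 and 1.33 CPM. Both groups were spread widely, by 4.01 times among vector samples and 2.33 times among circEZH2_005 samples. For Batf edgeR gave a log2 fold change of 2.44 (SE 0.57, 95% confidence interval 1.12 to 3.76, adjusted p = 0.0574). Without vector sample 2 it was 3.22 with an adjusted p of 0.0105. Leukocyte markers, whose values are given with the other markers, had the same highest vector sample, sample 2, and their part in the difference of Batf was not tested. Maff (chromosome 15, 79346621 to 79359076, plus strand) encodes a small MAF protein, which has no activation domain. Maff had normalized counts of 4.17, 7.07 and 5.60 CPM with the vector and 9.36, 13.5 and 10.03 CPM with circEZH2_005. Each circEZH2_005 sample was above each vector sample, the log2 fold change in edgeR was 0.97 (SE 0.23, adjusted p = 0.0622), and without vector sample 2 it was 1.17 with an adjusted p of 0.0271.

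The members did not vary alike within a group. Of the 9 genes tested, 7 were highest in circEZH2_005 sample 2, and the other 2, Fos and Fosb, were highest in sample 3 and lowest in sample 1. Among vector samples, 5 of 9 were highest in sample 2 (Jun, Junb, Atf3, Batf and Maff), whereas Fosl2, Jund and Fosb were highest in sample 1 and Fos in sample 3. Summed over the 10 genes, normalized counts were 228, 244 and 234 CPM in vector samples 1 to 3 and 388, 509 and 428 CPM in circEZH2_005 samples 1 to 3.

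Because the members differed in fold change, the makeup of each family was compared as a share of its summed FPKM within each sample, which does not depend on scaling between samples. Jun took 10.8%, 13.8% and 12.7% of the Jun family with the vector and 23.3%, 20.01% and 22.1% with circEZH2_005, a difference in means of 9.37 percentage points. The share of Jund was lower by 7.48 points in the group means, 52.3% ± 1.902 against 59.8% ± 3.86 (SD, n = 3 each), and that of Junb was 25.9% ± 1.05 against 27.8% ± 2.34, with overlapping ranges and a difference of -1.89 points (exact permutation test, p = 0.3). Without vector sample 1 the difference for Junb was -3.22 points (exact p = 0.1), without vector sample 2 it was -1.01 points (exact p = 0.6), and as a share of counts in place of FPKM it was -3.49 points (exact p = 0.1). For Jun and Jund the groups did not overlap (exact permutation test, two-sided p = 0.1, the smallest possible with 3 against 3; 0.233 adjusted over the 7 shares). In the Fos family, Fos and Fosl2 made up nearly everything in all samples. The share of Fos was 65.3% ± 2.69 with the vector and 70.3% ± 7.49 with circEZH2_005, and that of Fosl2 34.3% ± 2.55 and 28.6% ± 7.38, and neither difference exceeded the spread (exact permutation test, p = 0.4 each). These 2 differences depended on single samples: from 4.98 points for Fos and -5.72 for Fosl2 they went to 8.92 and -9.57 points without circEZH2_005 sample 1 (exact p = 0.1 each, groups no longer overlapping) and to 1.46 and -2.21 points without circEZH2_005 sample 3 (exact p = 0.7 each). Fosb took 0.373%, 0.269% and 0.210% with the vector and 1.03%, 0.927% and 1.08% with circEZH2_005, without overlap (exact permutation test, p = 0.1). Summed FPKM of the Jun family was 52.9 ± 1.92 with the vector and 81.4 ± 5.39 with circEZH2_005, a ratio of 1.54, and that of the Fos family was 21.2 ± 1.58 and 37.9 ± 7.72, a ratio of 1.79 (exact permutation test, p = 0.1 each, n = 3).

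**Figure D3:**
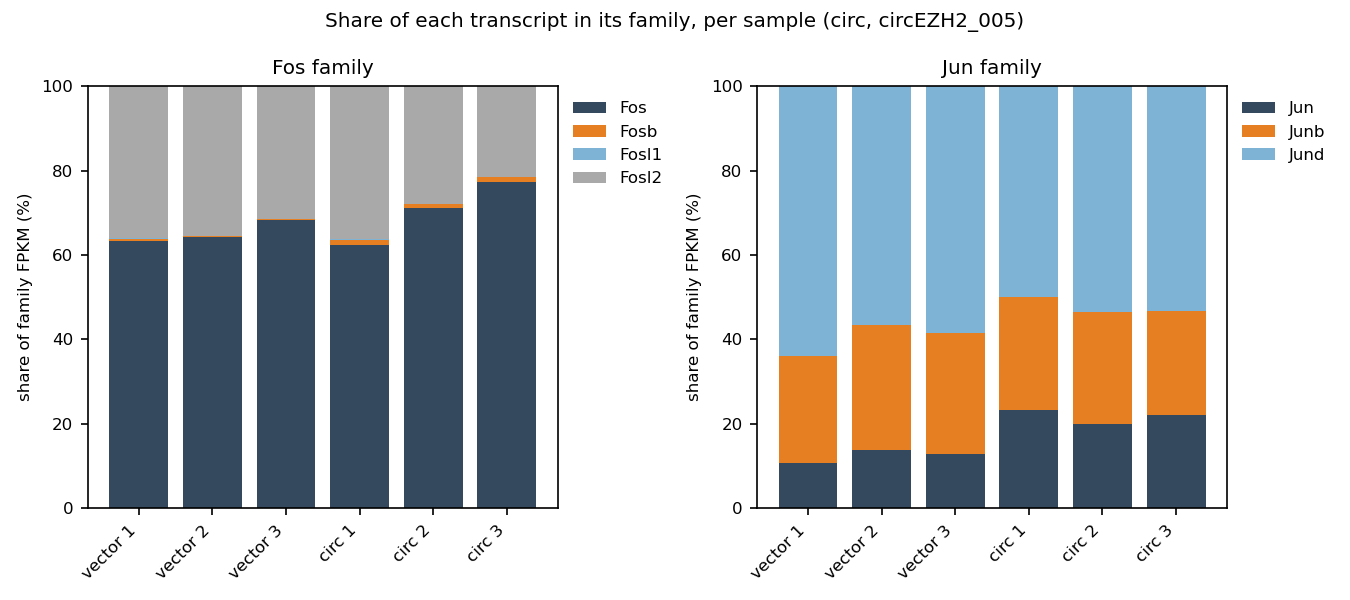
Share of each transcript in the summed FPKM of its family (stacked bars, percent from 0 to 100) in vector samples 1 to 3 and circEZH2_005 samples 1 to 3. Jun takes 20.01% to 23.3% of the Jun family in the circEZH2_005 samples against 10.8% to 13.8% in the vector samples, while the Fos family is mostly Fos and Fosl2 in all samples and Fosl1 is too small to see.

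Promoter sequences are shown for the 3 members with the largest called fold changes and for Maff, the member with a complete cyclic AMP response element (CRE). The windows run from 250 bases before to 50 after the RefSeq start site (GRCm38.p6) and were found for 9 members. Capitals mark matches on either strand to TGACTCA (the AP-1 site), TGACGTCA (the CRE), TGACATCA (the variant AP-1 site of the Jun type), ACGTG (the core of the hypoxia response element), the CArG box that serum response factor binds, and TGACG, the start of the CRE, which was added after the windows were seen and lies within every CRE.
Jun, chr4:95052173-95052472, minus strand: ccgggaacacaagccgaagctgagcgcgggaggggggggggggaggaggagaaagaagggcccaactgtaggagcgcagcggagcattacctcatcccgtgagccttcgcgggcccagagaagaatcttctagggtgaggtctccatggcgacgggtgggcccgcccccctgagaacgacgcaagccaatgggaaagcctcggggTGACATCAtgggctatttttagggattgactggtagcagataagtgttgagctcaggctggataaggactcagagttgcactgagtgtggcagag
Fosb, chr7:19309996-19310295, minus strand: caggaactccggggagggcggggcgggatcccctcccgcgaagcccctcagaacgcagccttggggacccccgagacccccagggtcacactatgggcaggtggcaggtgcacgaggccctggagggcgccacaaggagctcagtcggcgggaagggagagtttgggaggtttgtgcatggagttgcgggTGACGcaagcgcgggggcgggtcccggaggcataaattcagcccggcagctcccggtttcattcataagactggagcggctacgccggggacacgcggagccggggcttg
Atf3, chr1:191183284-191183583, minus strand: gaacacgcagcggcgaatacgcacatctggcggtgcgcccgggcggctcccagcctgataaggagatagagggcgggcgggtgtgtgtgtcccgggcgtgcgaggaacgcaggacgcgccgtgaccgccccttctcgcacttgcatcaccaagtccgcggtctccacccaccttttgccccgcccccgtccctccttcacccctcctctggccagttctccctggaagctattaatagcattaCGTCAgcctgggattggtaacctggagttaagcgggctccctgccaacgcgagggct
Maff, chr15:79347270-79347569, plus strand: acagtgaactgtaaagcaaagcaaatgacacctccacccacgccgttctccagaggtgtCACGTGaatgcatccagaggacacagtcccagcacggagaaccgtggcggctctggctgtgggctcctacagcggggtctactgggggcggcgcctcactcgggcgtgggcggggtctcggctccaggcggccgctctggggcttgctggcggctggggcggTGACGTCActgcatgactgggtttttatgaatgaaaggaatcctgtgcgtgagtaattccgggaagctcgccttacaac

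The Jun window holds 1 match, TGACATCA from 45 to 38 bases before the start, and 1 of 3 windows of Maff holds the same letters at the same distance. These 8 letters occur in 3.62% of 32817 mouse promoter windows. The complete CRE, at 29 to 22 bases before the start in another Maff window, occurs in 1.79% of windows. TGACG, added after the windows were seen, was found in 6 of 9 members with a window (Fos, Fosb, Junb, Atf3, Batf and Maff), and in 20.8% of all windows. The 9 members have 11 windows, so counts of members and shares of windows differ in unit. ACGTG was found in Jund and Maff and in 19.6% of all windows. TGACTCA, found in 5.20% of all windows, and the CArG box, found in 1.63%, had 0 matches in the members' windows. The RefSeq window of Jund lies upstream of the start deposited for the gene, and those of Atf3 and Fosl2 and the Maff window shown lie inside the deposited gene bounds. Sites outside the windows were not searched. A match is a description of the letters, and binding was not measured.

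Other leucine zipper factors that pair with AP-1 proteins or resemble them were listed beside the members (Jdp2, Batf2, Batf3, Atf2, Atf7, Maf, Mafa, Mafg, Mafk, Nfe2l2, Bach1 and Bach2). Of these 12 genes, 10 were tested and 0 passed an adjusted p of 0.05 by edgeR, though 5 were higher at an unadjusted p under 0.05, 3 were higher by DESeq2 and 1 by limma. Their median log2 fold change was 0.31. Jdp2, a repressor that pairs with Jun proteins, had the largest, 2.56 (adjusted p = 0.0573), and Atf7 the lowest, -0.19. Over all genes, DESeq2 called 1588 higher and 701 lower of 16459 tested, and limma on log2(FPKM + 1) called 371 and 364 of 13278. The share of all genes at an unadjusted p under 0.05 was not counted, so such counts, here and below, have no share to be read against.

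Upstream of the members, transcripts of the JNK, p38 and ERK kinases and their activators were examined. Of 22 tested, 0 passed by edgeR (5 higher and 1 lower at an unadjusted p under 0.05, 2 higher and 1 lower by DESeq2, 0 higher and 1 lower by limma), with a median log2 fold change of 0.15. Of 12 SRF, ELK, CREB and MEF2 factors, which act on promoters of early genes, 1 rose: Elk3, an ETS factor, from 1.60 ± 0.83 to 6.19 ± 1.03 CPM (log2 fold change 1.95, adjusted p = 0.0412). Elk3 passed in 1 of the 6 fits that left a sample out, the one without vector sample 2 (adjusted p = 0.00689), and had 0.0718 to 0.166 in the others. The median of this list was 0.21. Among 7 genes for turnover and cofactors of Jun and Fos proteins, such as the ubiquitin ligase subunit Fbxw7, 0 passed by edgeR (1 higher and 1 lower at an unadjusted p under 0.05, 0 by DESeq2 or limma), and the median was -0.09. Of 9 proteins that bind AU-rich mRNAs, a group whose known targets include Fos and Jun transcripts, 0 passed by edgeR (2 higher and 3 lower at an unadjusted p under 0.05, 2 higher and 1 lower by DESeq2, 0 by limma), with a median of -0.11.

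Of 18 tested among 21 genes that AP-1 is known to regulate, 2 rose and 0 fell by edgeR (5 higher and 1 lower at an unadjusted p under 0.05, the same numbers by DESeq2, 1 and 1 by limma). These were Ccnd1, which encodes cyclin D1, from 165 ± 21.8 to 243 ± 10.2 CPM (log2 fold change 0.56, adjusted p = 0.0412), and the cytokine gene Tgfb1, from 2.04 ± 0.49 to 6.22 ± 0.92 CPM (log2 fold change 1.61, adjusted p = 0.0215). Ccnd1 passed in 1 of 6 fits that left a sample out, without vector sample 2 (adjusted p = 0.00914, against 0.0660 to 0.173), and Tgfb1 in 3 of 6, missing without vector sample 1 or 3 or circEZH2_005 sample 2 (0.0976, 0.116 and 0.0911). The median log2 fold change of the list was 0.39. The matrix proteases Mmp10 and Mmp13 and the plasminogen activator gene Plau, all classical AP-1 targets, had log2 fold changes of 1.19, 1.16 and 0.84 with overlapping groups, and did not pass (adjusted p = 0.424, 0.296 and 0.520).

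Other markers moved with the groups. Summed over 15 leukocyte markers, normalized counts were 128, 339 and 156 CPM in vector samples 1 to 3 and 767, 599 and 444 CPM in circEZH2_005 samples 1 to 3. Of these markers 9 had all circEZH2_005 samples above all vector samples, 0 passed the adjustment by edgeR (9 higher at an unadjusted p under 0.05, 7 by DESeq2, 1 by limma), 9 passed without vector sample 2, and the median log2 fold change was 1.29, while no marker was at 0 in any sample. Ptprc, the pan-leukocyte marker CD45, ranged from 22.8 to 184.5 CPM and Cd3e, a T cell receptor component, from 3.55 to 37.6 CPM. Vector sample 2 was the highest vector sample for this sum, as it was for Jun, Junb, Atf3, Batf and Maff. Sample 3 of circEZH2_005, the lowest of its group in this sum, was also the lowest of its group for Fosl2, Jun, Junb, Atf3 and Batf. Sample 1 of circEZH2_005, the highest of all in leukocyte markers, was the lowest of its group for Fos, Fosb, Jund and Maff. The markers of fibroblasts and muscle summed to 4.69 to 13.7 CPM in all samples, and those of endothelium to 1.59 to 2.68 CPM with the vector and 4.68 to 6.88 CPM with circEZH2_005. Among the latter Pecam1, which leukocytes also carry, rose (log2 fold change 1.93, adjusted p = 0.0377), and Cdh5 and Kdr were at or under 0.243 CPM in every sample.

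Crypt stem cell markers were present in all samples, beside markers of differentiated epithelium and of leukocytes. Lgr5 was between 7.70 and 18.4 CPM, and 3 of 6 crypt stem cell markers fell, Lgr5, Smoc2 and Rgmb, with log2 fold changes of -0.88, -0.81 and -0.58 (adjusted p = 0.0434, 0.0203 and 0.0284 by edgeR). Of the 6, 5 were lower at an unadjusted p under 0.05, 5 by DESeq2 and 3 by limma, and 0 were higher by any of these. In 5 of them all circEZH2_005 samples were below all vector samples, and the share of all genes placed this way was not counted. Of 7 epithelial markers 2 rose, Krt8 by 0.57 and Krt20, a keratin of differentiated cells, by 1.18 on the log2 scale (adjusted p = 0.0301 and 0.0207 by edgeR). Over all samples Krt20 ranged from 770 to 2248 CPM and the epithelial marker Vil1 from 1695 to 3329 CPM. The stem cell marker Olfm4 ranged from 1003 to 2314 CPM. How much of each sample was stem cells was not tested. Of 6 heat shock genes tested, another class induced by stress, 4 fell and 0 rose by edgeR (0 higher at an unadjusted p under 0.05, 0 by DESeq2 or limma): Hspa1a, Hspa1b, Hsph1 and Hspa8, with log2 fold changes of -1.98, -1.73, -1.46 and -0.74 (adjusted p = 0.0313, 0.0185, 0.0119 and 0.0362). Summed over all 7 heat shock genes listed, called or not, the level was 3129 to 4147 CPM with the vector. With circEZH2_005 it was 1821 to 2381 CPM, the opposite direction to the AP-1 genes. Most of this sum was Hspa8 in every sample. The edgeR calls of these markers and heat shock genes rested on the full set of samples. Without vector sample 3 none of the genes called passed (adjusted p = 0.0689 for Hsph1 and higher for the others by edgeR). Without vector sample 1 only Hsph1 did (0.0261). The part of leukocyte RNA, of epithelial makeup or of handling in the differences of the AP-1 genes was not tested.

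**Figure D4:**
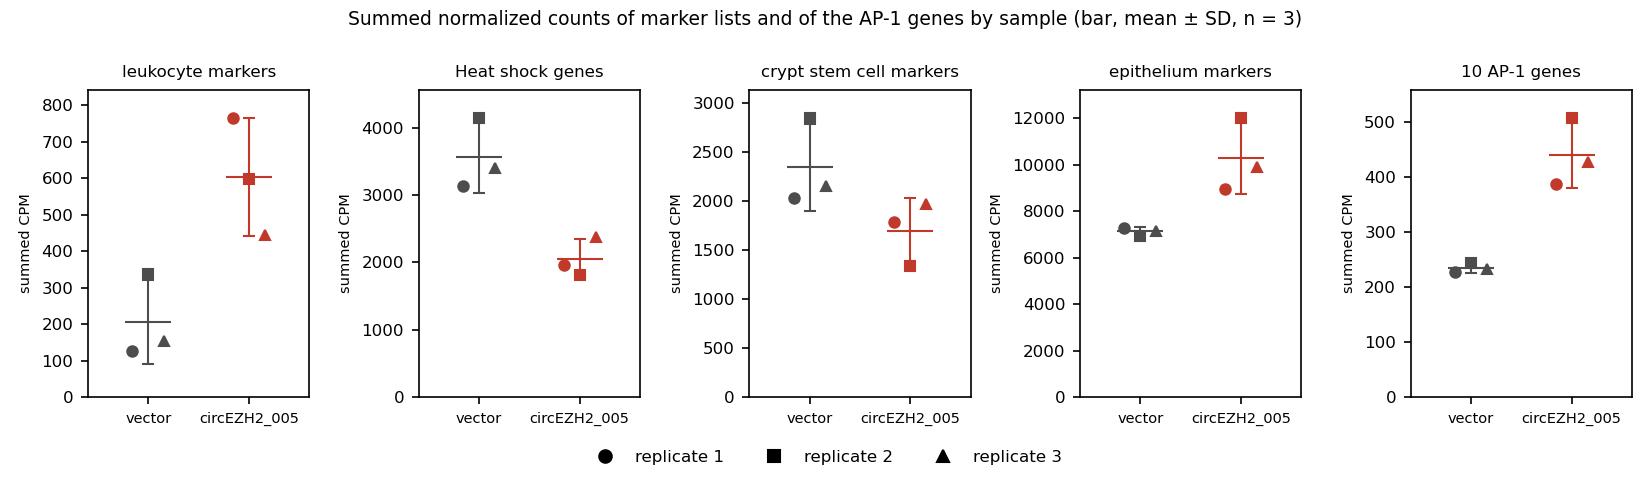
Summed CPM (linear axes from 0) of the leukocyte markers, heat shock genes, crypt stem cell markers, epithelial markers and the 10 AP-1 genes in each sample; the line is the mean and the bar the SD, n = 3. Leukocyte markers are at 444 to 767 CPM with circEZH2_005 against 128 to 339 CPM with the vector, and the AP-1 sum is at 388 to 509 against 228 to 244 CPM. Olfm4 makes up most of the crypt stem cell sum in every sample, and Hspa8 most of the heat shock sum.

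For Jun and Fosb, the genes with the most similar pattern over the 6 samples were looked up, by the root mean square difference of centred log2 CPM among 13340 genes of at least 1 CPM. Jun was most like Dtx3 (0.035), which encodes a Deltex family protein, then Tgfb1 (0.149) and the histocompatibility pseudogene H2-T-ps (0.157), whose reads may be shared with near-identical family members. Fosb was most like Cyp3a25 (0.307) and Cyp2b10 (0.311), cytochrome P450 genes with close paralogs, and the orphan receptor gene Gprc5a (0.372). These are descriptions over 6 samples that form 2 groups, and no test was made.

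**Figure D5:**
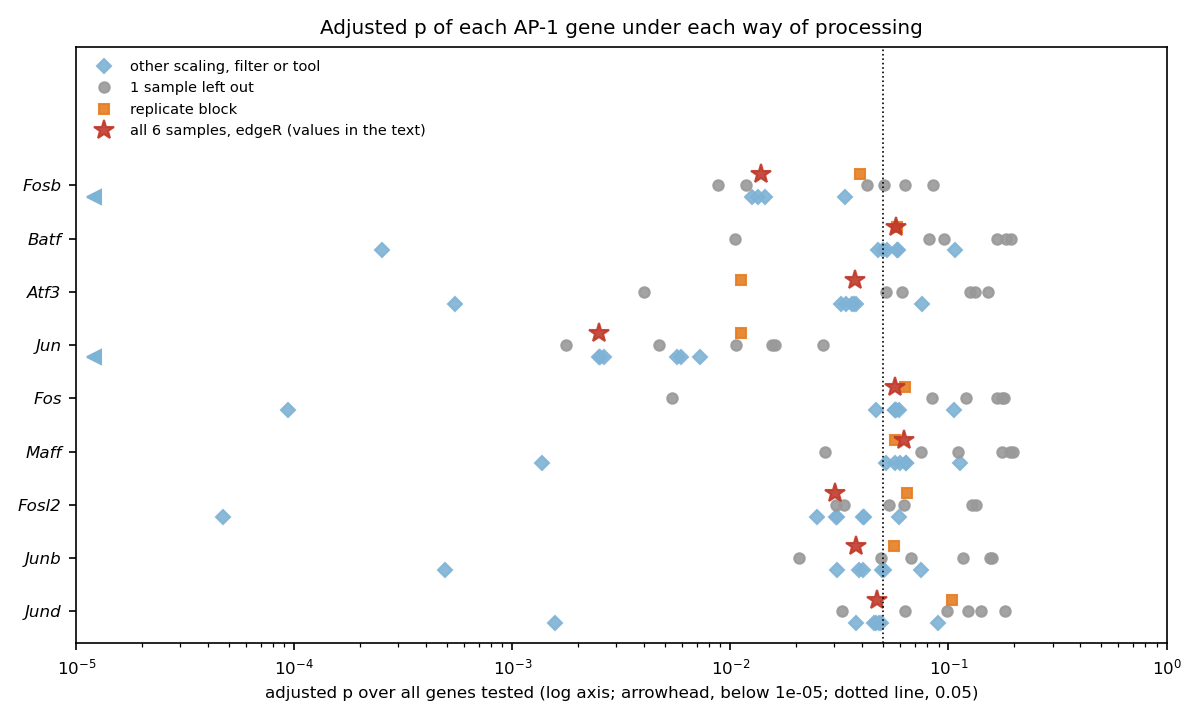
Adjusted p of each of the 9 genes (log axis, dotted line at 0.05) for all 6 samples by edgeR, with 1 sample left out, with the replicate number as a block, and with another scaling, filter or tool; arrowheads lie below 1e-05. All points of Jun are left of the line, and those of the other 8 genes lie on both sides.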

How the data were processed

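RNA sequencing of 6 mouse samples was used, 3 per group, with groups and replicate numbers taken from the sample titles. Control columns, named NC, were matched to the vector samples, the only control in the titles. The authors deposited raw counts per gene and FPKM. Per the labels, the submitters' processing notes name cutadapt 1.9, HISAT2 2.0.4, StringTie 1.3.4d, DESeq2 and the build mm10; roles, annotation and strand setting are not given in the sources used here. Libraries were made with oligo(dT) beads. Of 28752 gene identifiers, 28678 occur in GENCODE M21 (GRCm38).

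Genes kept by filterByExpr (18348) were compared with edgeR 4.0.16 in R 4.3.3 (TMM, quasi-likelihood test, no covariate). CPM are counts scaled to the effective library size, and standard errors are log2 fold change over the square root of F. Exact permutation tests (two-sided) were used for single values and shares. Alternatives were DESeq2 1.42.0, limma 3.58.1 on log2(FPKM + 1) and log2(FPKM + 0.1) for genes averaging 0.5 FPKM or more, other scalings and filters, the replicate block and each sample left out. The fit was tested on simulated data. All 10 members were named, from each pathway list the genes past an adjusted p of 0.05 (at most 4), the 3 genes most like Jun and Fosb, and genes overlapping a member; Jdp2, Atf7, Fbxw7, Mmp10, Mmp13, Plau and the markers named were added after values were seen. Members and lists were chosen with earlier results of these data known. A comparison of the protein sequences was planned and is not reported here, nor is 1 gene of the list of dimer partners.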

Additional observations from a re-analysis of the deposited data

How the results depend on the processing

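Every one of the 9 members tested kept a positive log2 fold change under all alternatives that gave it a value, with ranges of 0.87 to 1.32 (Fos), 2.56 to 2.97 (Fosb), 0.47 to 0.68 (Fosl2), 1.31 to 1.62 (Jun), 0.49 to 0.68 (Junb), 0.42 to 0.60 (Jund), 2.00 to 2.92 (Atf3), 0.91 to 3.22 (Batf) and 0.64 to 1.17 (Maff). The number of members past an adjusted p of 0.05, 6 by edgeR on all samples, was 6 with RLE or upper quartile scaling, 2 without a filter (Fosb and Jun), 8 with at least 1 CPM in 3 samples, 9 by DESeq2, 5 and 4 by limma with pseudocounts of 1 and 0.1, and 1 to 7 when 1 sample was left out. Fosb is under the FPKM minimum of the limma fits and has no value there. The number with a fold change over 2 and p under 0.05, 5, was 2 and 3 in the limma fits, whose fold changes are on the log2(FPKM + pseudocount) scale, and 4 to 6 with 1 sample left out. Over all genes, 493 higher and 181 lower calls became 132 and 37 without a filter, 1588 and 701 by DESeq2, 241 and 36 with the block, 371 and 364 or 323 and 319 by limma, and 26 to 1098 higher with 1 sample left out. With the replicate number as a block, 3 members passed (Fosb, Jun and Atf3), and Fosl2, Junb and Jund had adjusted p of 0.0646, 0.0560 and 0.104. Deviations of same-numbered samples correlated by -0.14, -0.02 and 0.04, so the numbers were not taken to pair samples. As shares of counts in place of FPKM, Jun differed by 13.2 points of the Jun family (9.37 by FPKM), Fosb by 1.06 points of the Fos family (0.726 by FPKM), and Junb by -3.49 points of the Jun family (-1.89 by FPKM). Causes of these shifts were not tested. In the lists, leaving out 1 sample, an alternative chosen after seeing the data, gave 0 to 5 lower calls for heat shock genes, 0 to 4 for stem cell markers and 0 to 9 higher calls for leukocyte markers. Fosl1, with 0 to 14 counts per sample, was removed by the filter on low counts.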
